A study of Mus musculus with 9 samples.

Results

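The 9 genes of the urea cycle and hepatic ammonia handling described here are Cps1, Otc, Ass1, Asl, Arg1, Nags, Gls2, Slc25a15 and Slc25a13. They were taken by gene symbol from tables of 20325 genes, in which all 9 were listed, and all 9 were among the 12037 genes tested between groups. Messenger RNA of whole liver was sequenced in male mice of the strain C57BL/6J, with 3 livers in each of 3 groups. ConvD mice were germ-free animals that received cecal contents of conventionally raised chow-fed mice by 1 oral gavage of about 0.2 ml. GF+SCFA mice were kept germ-free, and their drinking water held short-chain fatty acids of the kind gut bacteria make, namely acetate at 67.5 mM, propionate at 25.9 mM and butyrate at 40 mM. GF mice stayed germ-free on plain water. All 3 groups had been bred germ-free and ate the same sterilised breeder chow, with 23.1% of its energy from protein. The labels disagree on age, since the design text has mice of 14 weeks, while in the growth protocol gavage was at 15 weeks of age and dissection followed 4 weeks later, at 19 weeks. Mice were caged by colonisation status, so an effect of cage and an effect of colonisation cannot be told apart, and the labels do not tie the 3 samples of a group to named animals, so each p-value rests on the spread between samples as deposited.

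The urea cycle turns ammonia, which is toxic to the brain, into urea for excretion by the kidney, and the liver is the organ that runs the whole cycle. Gut bacteria release ammonia from urea and protein, and the portal vein carries it to the periportal hepatocytes that express the cycle most strongly. Inside mitochondria Nags makes N-acetylglutamate, the obligate activator of carbamoyl phosphate synthetase (Cps1), which fixes ammonia, and ornithine transcarbamylase (Otc) joins the product to ornithine to give citrulline. In the cytosol argininosuccinate synthetase (Ass1) adds aspartate to citrulline, argininosuccinate lyase (Asl) splits off fumarate and leaves arginine, and arginase (Arg1) cuts arginine into urea and ornithine. The mitochondrial carrier Slc25a15 exchanges ornithine for citrulline, Slc25a13 (citrin) exports aspartate in exchange for glutamate, and the liver-type glutaminase Gls2 frees ammonia from glutamine next to Cps1. Transcripts of these genes are known to follow dietary protein, glucagon, glucocorticoids and the transcription factors C/EBP alpha and HNF4 alpha.

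Promoters of 5 of the 9 genes, namely Otc, Ass1, Nags, Slc25a15 and Slc25a13, were matched in the RefSeq table of the assembly GRCm38.p6, which runs from 250 bases before to 50 bases after each annotated start. Slc25a15 has windows at 2 starts. The windows below are shown because Slc25a13 and Ass1 were lower in ConvD livers in a comparison each, whereas Nags was not called in any comparison. Capitals mark motif matches, and each sequence runs 5′ to 3′ along the gene. Slc25a13 lies at chr6:6217124-6217423 on the minus strand, Ass1 at chr2:31470020-31470319 on the plus strand and Nags at chr11:102145263-102145562 on the plus strand.
Slc25a13: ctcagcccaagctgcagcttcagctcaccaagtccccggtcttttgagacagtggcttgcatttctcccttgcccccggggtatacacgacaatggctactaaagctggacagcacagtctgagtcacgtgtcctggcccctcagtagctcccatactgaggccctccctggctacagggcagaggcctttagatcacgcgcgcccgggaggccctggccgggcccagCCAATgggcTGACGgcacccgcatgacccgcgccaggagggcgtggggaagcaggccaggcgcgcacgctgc
Ass1: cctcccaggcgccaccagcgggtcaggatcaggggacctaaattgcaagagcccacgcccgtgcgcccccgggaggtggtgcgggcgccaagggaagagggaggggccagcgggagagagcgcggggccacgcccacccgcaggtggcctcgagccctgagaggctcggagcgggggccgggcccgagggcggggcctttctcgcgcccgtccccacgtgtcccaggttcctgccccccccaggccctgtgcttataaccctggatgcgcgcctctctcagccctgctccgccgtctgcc
Nags: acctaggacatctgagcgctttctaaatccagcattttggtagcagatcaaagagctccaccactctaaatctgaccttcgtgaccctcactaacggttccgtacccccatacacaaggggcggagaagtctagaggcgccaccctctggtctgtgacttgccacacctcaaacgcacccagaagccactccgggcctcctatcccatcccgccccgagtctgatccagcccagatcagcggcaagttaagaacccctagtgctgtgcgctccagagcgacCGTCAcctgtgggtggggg

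Motifs were searched on both strands as plain letters. CCAAT, the CCAAT box bound by the trimeric factor NF-Y, starts 22 bases before the Slc25a13 start and occurs in 37.4% of all 32851 windows. TGACG, a half-site of the cAMP response element, starts 13 bases before the Slc25a13 start and does not overlap that CCAAT. The same half-site lies on the opposite strand 31 bases after the Nags start, and 20.8% of all windows hold it. No match to any of the 6 motifs was found in the windows of Otc, Ass1 and Slc25a15. The other letters searched were TTGCNNAA for C/EBP (10.8% of windows), GNACA followed 3 bases later by TGTNC for the glucocorticoid receptor (0.5%), CAAAGTCCA for HNF4 (0.5%) and TATAAA (13.6%). The Ass1 window was 74.0% G and C, against 44.3% in that of Otc and a median of 52.7% over all windows. These matches describe the letters and were not tested as binding sites.

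Each library held 18193071 to 21627696 expected counts, the read counts that RSEM assigns to genes. TPM is the level of a gene per transcript length, as a share of its library. Against the label of liver, 9 hepatocyte markers summed to 85523 to 112364 TPM in ConvD, 82499 to 94528 TPM in GF+SCFA and 85416 to 107539 TPM in GF livers. Of these 9 markers 2 were called higher and 1 lower in ConvD against GF, and 2 higher and 2 lower against GF+SCFA. A list of 10 pancreas, intestine and kidney markers summed to 180 to 288 TPM in ConvD, 255 to 280 TPM in GF+SCFA and 228 to 256 TPM in GF livers. In that list Prss1, Pnlip, Umod and Slc12a1 had no count in any liver, and 1 of the 2 genes tested was called lower in ConvD against each germ-free group. The 12 Kupffer cell and macrophage markers summed to 488 to 677 TPM in ConvD livers, 343 to 422 TPM in GF+SCFA livers and 298 to 418 TPM in GF livers, and 9 neutrophil and monocyte markers to 103 to 143 TPM, 58.6 to 88.7 TPM and 57.2 to 84.2 TPM in the same groups. ConvD stood above both germ-free groups in both sums. Of the macrophage markers 8 of 12 rose against GF and 3 of 12 against GF+SCFA, and of the 7 tested neutrophil and monocyte markers 4 and 5 rose. Over all genes tested, 5.93% were called higher and 6.90% lower against GF, and 9.44% higher and 8.97% lower against GF+SCFA. Erythroid markers summed to 1116 to 4685 TPM in ConvD, 645 to 1048 TPM in GF+SCFA and 801 to 1293 TPM in GF livers, with none called. Against GF+SCFA 5 of 9 stellate cell and fibroblast markers, 3 of 4 tested B and plasma cell markers and 1 of 6 tested cholangiocyte markers also rose, and against GF 0 of 9, 1 of 4 and 0 of 6. The stellate cell and fibroblast sum was 165 to 186 TPM in ConvD, 123 to 141 TPM in GF+SCFA and 133 to 186 TPM in GF livers. The B and plasma cell sum was 5.74 to 7.81 TPM, 1.56 to 2.01 TPM and 2.15 to 3.31 TPM in the same groups, and the cholangiocyte sum 44.6 to 76.7 TPM, 26.9 to 31.1 TPM and 49.5 to 51.2 TPM. In bulk tissue fewer hepatocytes and less RNA per hepatocyte cannot be told apart, and the part of these other cells in the results that follow was not tested.

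Per unit of length Ass1, Cps1 and Arg1 were among the most abundant messages of the liver. Ass1 had the highest level of the 9 genes in every group, with a mean of 2073 ± 255 TPM in ConvD, 2498 ± 280 TPM in GF+SCFA and 2316 ± 279 TPM in GF livers (SD, n = 3 each), and it ranked between 41 and 64 among all genes in the 9 livers. Cps1 ranked between 62 and 111, and Arg1 between 80 and 101. Nags stood at the foot of the order, at 43.4 ± 3.45 TPM in ConvD, 39.7 ± 4.38 TPM in GF+SCFA and 38.1 ± 1.61 TPM in GF livers, between ranks 1784 and 2119. The gene that makes the activator was thus expressed far below the synthetase that needs it.

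**Figure D1:**
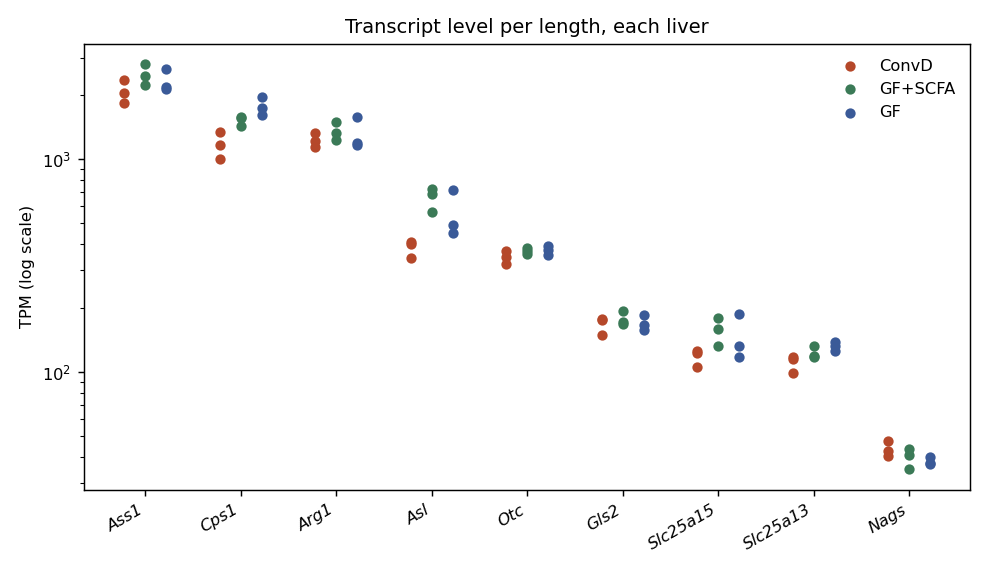
Level per transcript length of the 9 genes in each liver (TPM on a log axis; each point is 1 liver, ConvD left, GF+SCFA middle, GF right). Genes are ordered by their mean in GF livers, from Ass1 at 2316 TPM to Nags at 38.1 TPM, and Cps1 is the gene whose ConvD points drop level with those of Arg1.

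In GF livers the order by mean TPM was Ass1, Cps1 (1771 ± 178), Arg1 (1313 ± 229), Asl (553 ± 145), Otc (373 ± 18.5), Gls2 (170 ± 13.7), Slc25a15 (146 ± 36.2), Slc25a13 (132 ± 6.59) and Nags. The ranges of Gls2 and Slc25a15, and those of Slc25a15 and Slc25a13, overlapped, and all other neighbours were apart. The GF+SCFA order was the same, with Cps1 at 1523 ± 84.0 TPM next to Arg1 at 1348 ± 137 TPM, and these ranges overlapped. In ConvD livers Arg1 (1225 ± 91.0 TPM) stood before Cps1 (1171 ± 172 TPM) with overlapping ranges, and Asl (384 ± 34.5 TPM) overlapped Otc (346 ± 23.8 TPM). The order by normalised counts per kilobase was the same in all 3 groups. The 5 cycle enzymes together held 0.465% to 0.577% of all TPM in ConvD livers, 0.581% to 0.698% in GF+SCFA livers and 0.585% to 0.706% in GF livers. TPM is a share of each library, so these percentages also move with other genes.

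Colonised livers were compared with germ-free livers to ask how a gut microbiota changes the hepatic transcripts for ammonia disposal. In ConvD livers Cps1 fell by 37.2%, Asl fell by 33.1% and Slc25a13 fell by 19.7%, and none of the 9 genes rose. The genes that fell encode the ammonia-fixing entry enzyme, the argininosuccinate-splitting enzyme and the aspartate carrier. Called means an adjusted p under 0.05 in edgeR's quasi-likelihood test with Benjamini-Hochberg adjustment over the 12037 genes tested. By that rule 3 of 9 genes were called lower, where the background of all genes tested was 6.90% called lower and 12.8% called in either direction.

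Values by liver are given in CPM, counts scaled to library size with TMM factors, in the order of replicates 1, 2 and 3. Cps1 had 3739, 2960 and 3564 CPM in ConvD livers, 4519, 4709 and 4975 CPM in GF+SCFA livers, and 5066, 6336 and 4945 CPM in GF livers. Every ConvD liver lay below every liver of both other groups, and GF replicate 2 was the highest of all 9. The log2 fold change of ConvD over GF was -0.67 (SE 0.12, 95% interval -0.92 to -0.42, adjusted p = 0.00263). This call held in all 18 alternative fits, with adjusted p from 9.09e-07 to 0.0331.

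The other mitochondrial steps moved less. Otc read 455, 449 and 534 CPM in ConvD livers, 535, 531 and 569 CPM in GF+SCFA livers, and 555, 539 and 527 CPM in GF livers. ConvD replicate 3 lay among the germ-free livers, and the other 2 ConvD livers lay below them all. Otc was not called, at a log2 fold change of -0.17 (SE 0.08, adjusted p = 0.17), except when ConvD replicate 3 was left out (-0.26, adjusted p = 0.0342). Its adjusted p ranged from 0.0342 to 0.475 over the 18 alternatives.

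Nags was the only one of the 9 genes with a higher mean in ConvD than in GF livers. It had 45.4, 41.3 and 44.5 CPM in ConvD livers, 44.7, 45.3 and 37.6 CPM in GF+SCFA livers, and 40.4, 41.2 and 39.3 CPM in GF livers. All 3 ConvD livers lay above all 3 GF livers, though only just, with 41.3 and 41.2 CPM at the nearest pair, and 15.7% of all genes had this order. The log2 fold change of 0.12 (SE 0.08, interval -0.06 to 0.29, adjusted p = 0.368) was not called. An exon of Nags overlaps one of an antisense gene by 443 bases in the GRCm38 annotation, and the strand setting of the authors' counting is not known here, so the pair may share reads.

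Among the cytosolic enzymes Asl moved most. Asl showed 356, 318 and 381 CPM in ConvD livers, 561, 648 and 713 CPM in GF+SCFA livers, and 483, 453 and 643 CPM in GF livers. The ConvD livers lay below all 6 germ-free livers, and GF replicate 3 stood well above the other GF livers. The log2 fold change of ConvD over GF was -0.58 (SE 0.13, interval -0.87 to -0.29, adjusted p = 0.0172). Without ConvD replicate 1 it was -0.59 (adjusted p = 0.0503), without ConvD replicate 2 it was -0.51 (adjusted p = 0.0656), and with library totals in place of TMM it was -0.51 (adjusted p = 0.0663). The adjusted p of Asl ran from 0.000481 to 0.134 over the 18 alternatives, of which 12 kept the call.

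Ass1 had 2179, 1815 and 2094 CPM in ConvD livers, 2369, 2505 and 2937 CPM in GF+SCFA livers, and 2281, 2310 and 2524 CPM in GF livers. The ConvD livers again lay below all the germ-free ones, but the gap to GF replicate 1 was small and the gene was not called against GF (log2 fold change -0.22, SE 0.10, adjusted p = 0.159). Arg1 had 1106, 1014 and 1122 CPM in ConvD livers, 1174, 1205 and 1418 CPM in GF+SCFA livers, and 1131, 1135 and 1359 CPM in GF livers. Its log2 fold change was -0.16 (SE 0.10, interval -0.37 to 0.05, adjusted p = 0.302). Ass1, Asl and Arg1 thus showed the same order of groups by mean, with ConvD lowest and GF+SCFA highest, and of these 3 Asl alone was called against GF.

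Both mitochondrial carriers had lower means in ConvD livers. The aspartate carrier Slc25a13 had 209, 193 and 237 CPM in ConvD livers, 245, 262 and 245 CPM in GF+SCFA livers, and 257, 279 and 259 CPM in GF livers. No ConvD liver reached the lowest germ-free liver, and the log2 fold change over GF was -0.32 (SE 0.08, interval -0.49 to -0.14, adjusted p = 0.0206). Leaving out a library ended this call in 3 cases, namely ConvD replicate 1 (-0.30, adjusted p = 0.0657), ConvD replicate 2 (-0.24, adjusted p = 0.0936) and GF replicate 2 (-0.28, adjusted p = 0.0684). Library totals also ended it (-0.24, adjusted p = 0.0715), and over the 18 alternatives the adjusted p ran from 0.00508 to 0.113. The ornithine carrier Slc25a15 had 249, 226 and 283 CPM in ConvD livers, 305, 352 and 410 CPM in GF+SCFA livers, and 303, 278 and 390 CPM in GF livers. ConvD replicate 3 lay above GF replicate 2, and the gene was not called, at a log2 fold change of -0.36 (SE 0.14, interval -0.68 to -0.04, adjusted p = 0.128).

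Gls2, the glutaminase that feeds Cps1, had 255, 227 and 276 CPM in ConvD livers, 273, 268 and 312 CPM in GF+SCFA livers, and 269, 262 and 272 CPM in GF livers. The groups overlapped, since ConvD replicate 3 exceeded every GF liver, and the log2 fold change was -0.09 (SE 0.08, interval -0.26 to 0.09, adjusted p = 0.54). An exon of Gls2 overlaps one of Spryd4 on the other strand by 97 bases, with the same limit on counting as for Nags.

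**Figure D2:**
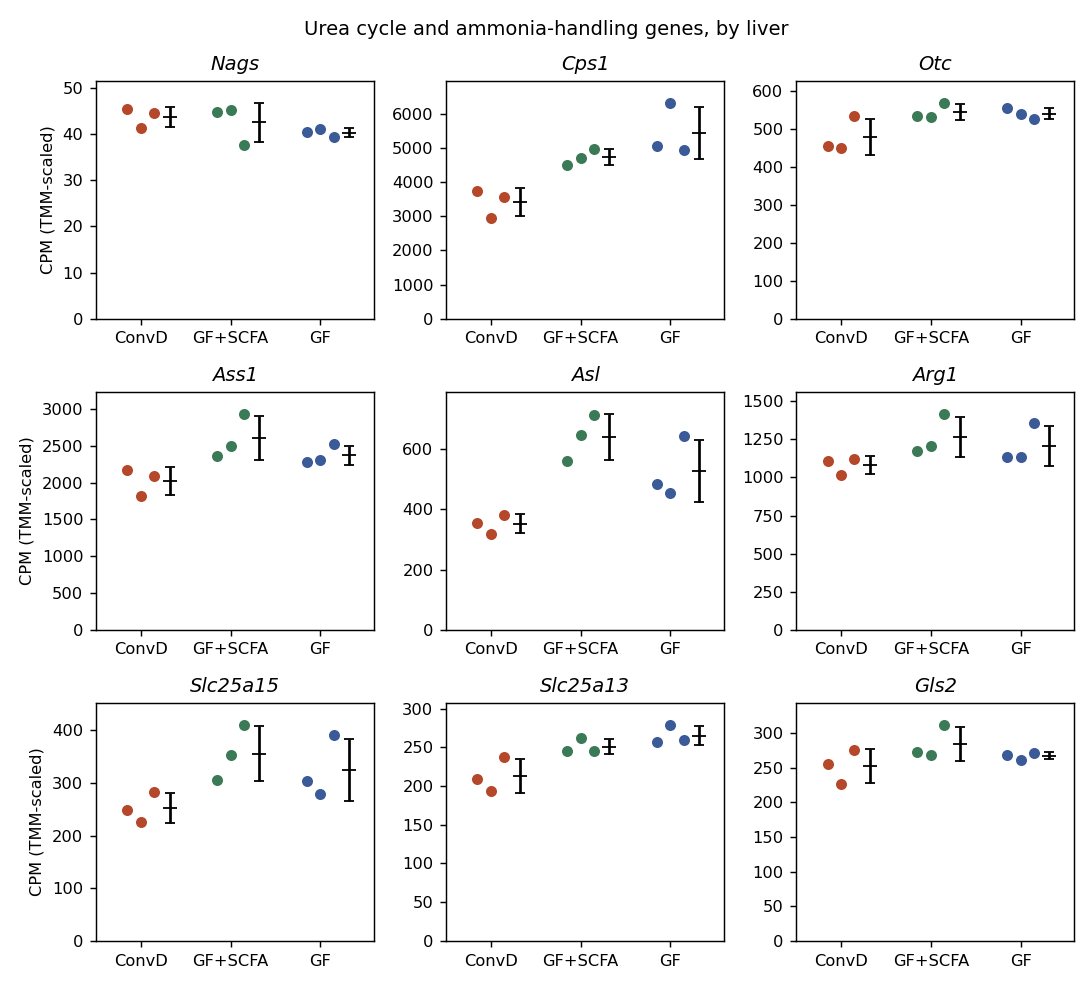
Normalised counts of the 9 genes by liver (CPM on a linear axis from 0; points are livers in the order of replicates 1 to 3, and the bar beside them is the mean ± SD of 3 livers). In Cps1 and Asl the 3 ConvD livers, at 2960 to 3739 and 318 to 381 CPM, lie below all 6 germ-free livers. In Nags the ConvD livers, at 41.3 to 45.4 CPM, lie just above the GF livers, at 39.3 to 41.2 CPM, and overlap the GF+SCFA livers.

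Over the 9 genes, 8 had a negative log2 fold change of ConvD over GF, against 49.5% of all genes tested, and the median was -0.22, against 0.00 over all genes. In 5 of 9 (Cps1, Ass1, Asl, Arg1 and Slc25a13) all ConvD livers lay below all GF livers, against 15.9% of all genes. The sign of each of the 9 fold changes was the same in all 18 alternatives. The scaling of the libraries mattered for the calls: 46.2% of the genes called between ConvD and GF were higher in ConvD under TMM, 66.1% under upper-quartile factors and 73.1% under library totals. The 9 genes gave 3 calls under TMM, the same 3 under upper-quartile factors, and under library totals a call for Cps1 alone.

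Germ-free mice given the fatty acid water were compared with germ-free mice on plain water to ask whether these bacterial products alone give the change seen on colonisation. No call was made in any of the 9 genes by edgeR's quasi-likelihood test. The call rate over all genes was 0.0415%, or 5 of 12037 genes (0.0332% lower and 0.00831% higher), so this comparison gave few calls anywhere. At an unadjusted p under 0.05 the count was 0 of 9 genes, against 1477 of all genes, and it was also 0 of 9 with DESeq2, which called 82 genes, and with limma on TPM.

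Asl was nearest to a call. Its mean was 641 ± 76.4 CPM in GF+SCFA livers and 526 ± 102 CPM in GF livers (SD, n = 3 each), a log2 fold change of 0.28 (interval -0.01 to 0.58, adjusted p = 0.42). GF replicate 3, at 643 CPM, lay within the GF+SCFA range of 561 to 713 CPM, and the other GF livers lay below it. Without GF replicate 3 the log2 fold change was 0.45 (adjusted p = 0.0495), and over all 18 alternatives the adjusted p ran from 0.0495 to 0.802.

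Cps1 averaged 4734 ± 229 CPM in GF+SCFA livers and 5449 ± 771 CPM in GF livers, with a log2 fold change of -0.20 (interval -0.45 to 0.04, adjusted p = 0.503). GF+SCFA replicate 3 lay between GF replicates 3 and 1, so the ranges overlapped narrowly. Slc25a13 gave -0.08 (interval -0.25 to 0.09), and the 6 other genes gave 0.01 for Otc to 0.14 for Slc25a15. In none of the 9 genes were the groups apart. Over all genes, 8.86% had all GF+SCFA livers below all GF livers and 9.06% had them above. With shares that low, a count of 0 among 9 genes does not set them apart from all genes. As percent changes the intervals were -26.7% to 3.03% for Cps1 and -0.508% to 49.1% for Asl, so a moderate change of either gene was not resolved with 3 livers a group.

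Colonised livers were last compared with the fatty-acid-supplemented livers, which share the absence of microbes with the GF group. In ConvD livers Asl fell by 45.1%, Slc25a15 fell by 29.1%, Cps1 fell by 27.7% and Ass1 fell by 22.1%, and none of the 9 genes rose. These are the lyase, the ammonia-fixing synthetase, the ornithine carrier and the argininosuccinate synthetase. Thus 4 of 9 genes were called lower, against a background of 8.97% of all genes called lower and 18.4% called in either direction. This comparison uses the same ConvD livers as the one against GF, so the lists are not independent of each other.

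For Asl the ConvD livers spanned 318 to 381 CPM and the GF+SCFA livers 561 to 713 CPM, with no overlap. Its log2 fold change of -0.86 (SE 0.13, interval -1.16 to -0.57, adjusted p = 0.00155) was the largest of the 9 genes in any of the 3 comparisons. The call held in all 18 alternatives, with adjusted p from 1.47e-08 to 0.0264.

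Cps1 spanned 2960 to 3739 CPM in ConvD livers and 4519 to 4975 CPM in GF+SCFA livers, also apart, with a log2 fold change of -0.47 (SE 0.11, adjusted p = 0.0126). The Cps1 call was lost without ConvD replicate 2 (-0.37, adjusted p = 0.0626) and without GF+SCFA replicate 3 (-0.43, adjusted p = 0.0551), within a range of 0.00101 to 0.0815 over the 18 alternatives. In Ass1 the ConvD livers reached 2179 CPM at most and the GF+SCFA livers 2369 CPM at least, and the log2 fold change was -0.36 (SE 0.10, adjusted p = 0.0244). This call was lost without ConvD replicate 2 (-0.28, adjusted p = 0.108), GF+SCFA replicate 2 (-0.38, adjusted p = 0.0548) or GF+SCFA replicate 3 (-0.27, adjusted p = 0.12) and under library totals (-0.29, adjusted p = 0.0763), within a range of 0.00579 to 0.251.

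Slc25a15 was the least stable of the 4. Its ConvD livers ended at 283 CPM and its GF+SCFA livers began at 305 CPM, giving a log2 fold change of -0.50 (SE 0.14, interval -0.82 to -0.18, adjusted p = 0.038). Only 8 of 18 alternatives kept the call, and the adjusted p ran from 0.00224 to 0.182. It was lost without ConvD replicate 1 (-0.49, adjusted p = 0.103), ConvD replicate 2 (-0.42, adjusted p = 0.12), GF+SCFA replicate 2 (-0.50, adjusted p = 0.0921) or GF+SCFA replicate 3 (-0.38, adjusted p = 0.109). Upper-quartile factors (-0.44, adjusted p = 0.0567), library totals (-0.42, adjusted p = 0.116) and no filter on low counts (-0.50, adjusted p = 0.0508) ended it too.

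Slc25a13, which fell against GF, was just short of a call against GF+SCFA, at a log2 fold change of -0.24 (SE 0.08, adjusted p = 0.0548), although its ConvD and GF+SCFA ranges did not overlap. It was called without ConvD replicate 3 (-0.32, adjusted p = 0.012) and with no filter on low counts (adjusted p = 0.0482), in a range of 0.012 to 0.282 over the 18 alternatives. Otc gave -0.19 (adjusted p = 0.121) and was called without ConvD replicate 3 (-0.27, adjusted p = 0.0213), with 0.0213 to 0.436 over the alternatives. Arg1 gave -0.23 (adjusted p = 0.121), Gls2 -0.17 (adjusted p = 0.168) and Nags 0.04 (interval -0.13 to 0.21, adjusted p = 0.764). In 6 of 9 genes (Cps1, Ass1, Asl, Arg1, Slc25a15 and Slc25a13) all ConvD livers lay below all GF+SCFA livers, against 18.9% of all genes tested. The log2 fold change was below 0 in 8 of 9 genes, against 49.0% of all genes, and its median was -0.24 over the 9 genes and 0.01 over all genes. Of all genes called between ConvD and GF+SCFA, 51.3% were higher in ConvD under TMM, 66.8% under upper-quartile factors and 72.4% under library totals.

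**Figure D3:**
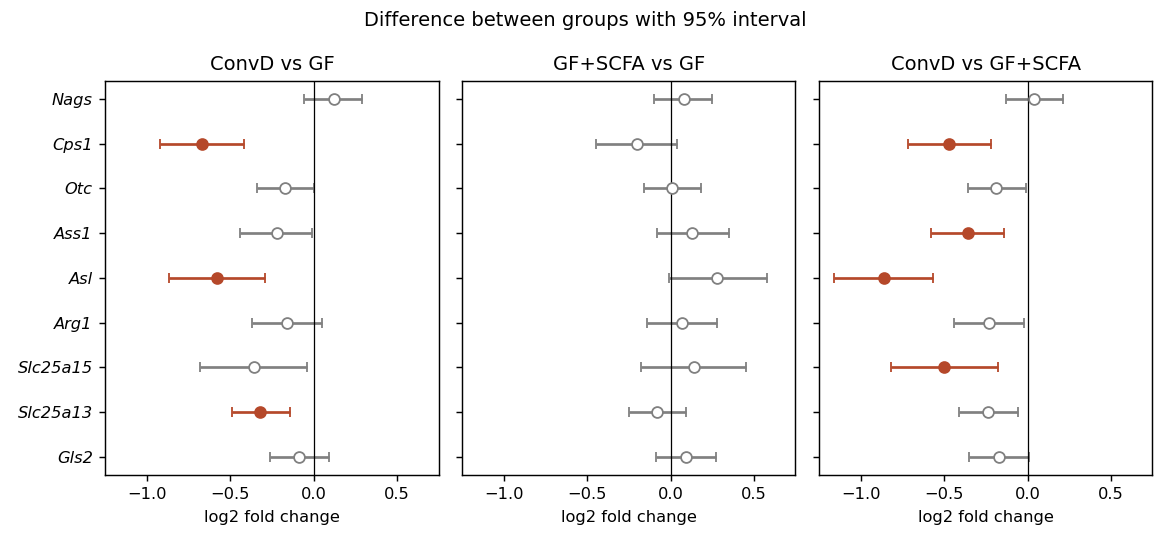
Log2 fold change of each gene in the 3 comparisons, with 95% intervals from the edgeR fit (filled red: adjusted p under 0.05; open grey: not called). Cps1 and Asl are called lower in both comparisons with ConvD on top, at -0.67 and -0.58 against GF and -0.47 and -0.86 against GF+SCFA, and no gene is called between GF+SCFA and GF.

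Within the groups, some livers were the extreme one for many of the 9 genes. ConvD replicate 2 was the lowest ConvD liver for 9 of 9 genes, whereas it was the lowest for 31.5% of all genes tested. Its hepatocyte marker sum, 112364 TPM, was the highest of the 9 livers, and the part of cell composition in its low readings was not tested. GF+SCFA replicate 3 was the highest GF+SCFA liver for 7 of 9 genes (33.3% of all genes) and GF replicate 3 the highest GF liver for 5 of 9 (36.8%), these being Ass1, Asl, Arg1, Gls2 and Slc25a15. GF replicate 3 was also the lowest GF liver for Cps1, Otc and Nags, and each GF liver was the lowest for 3 of the 9 genes. Relative to the GF mean, ConvD replicate 2 read -0.88 for Cps1, -0.72 for Asl and -0.52 for Slc25a15 on the log2 scale, and ConvD replicate 3 read -0.61, -0.47 and -0.20 for these genes.

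Without ConvD replicate 2 the count of genes called lower was 1 of 9 against GF (Cps1) and 1 of 9 against GF+SCFA (Asl), and without ConvD replicate 3 it was 4 of 9 and 6 of 9. Leaving out ConvD replicate 1 gave 1 of 9 against GF, and leaving out GF+SCFA replicate 2 or 3 gave 2 of 9 and 1 of 9 against GF+SCFA. Calls over all genes changed too. Against GF they numbered 1544 with all livers, and 936, 849 and 1466 without ConvD replicates 1, 2 and 3. Against GF+SCFA they numbered 2216 with all livers and 1383 to 2393 with a library left out.

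**Figure D4:**
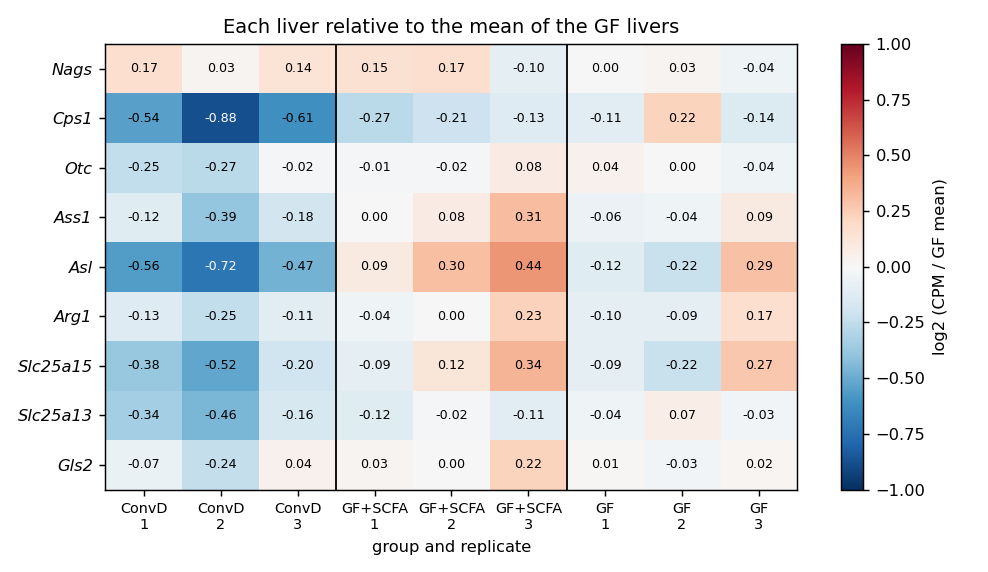
Each liver's level relative to the mean of the 3 GF livers (log2 of the CPM ratio; rows are genes, columns are livers grouped as ConvD, GF+SCFA and GF). The ConvD columns are blue in most rows and deepest in replicate 2, with -0.88 for Cps1, while the Nags row is near 0 throughout.

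Genes around the cycle were read from 6 lists of transporters, nitrogen-handling enzymes, amino acid breakdown enzymes, regulators and zonation markers, 173 tested genes in all. In ConvD against GF livers 14 of the 173 rose and 22 fell, where 5.93% of all genes tested rose and 6.90% fell. In ConvD against GF+SCFA livers 17 rose and 36 fell, where 9.44% of all genes rose and 8.97% fell. Between GF+SCFA and GF 0 of 173 were called by edgeR, 17 had an unadjusted p under 0.05, and DESeq2 called 3. The median log2 fold change of the 173 genes was -0.07, 0.04 and -0.09 for ConvD over GF, GF+SCFA over GF and ConvD over GF+SCFA. Leaving out ConvD replicate 1, ConvD replicate 2 or GF replicate 1 brought the calls of ConvD against GF to 20, 21 and 21, and leaving out ConvD replicate 2 brought those of ConvD against GF+SCFA to 35. Over all genes the same fits against GF gave 936, 849 and 918 calls, where 1544 were made with all livers.

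Nitrogen entry and disposal beside the cycle held 33 tested genes. In ConvD against GF livers 3 fell and 2 rose, and in ConvD against GF+SCFA livers 11 fell and 3 rose. These were 15.2% and 42.4% of the list, against 12.8% and 18.4% of all genes tested. Odc1, ornithine decarboxylase, which draws ornithine into polyamines, had 46.2, 46.2 and 48.1 CPM in ConvD livers, 76.0, 77.1 and 79.3 CPM in GF+SCFA livers, and 71.1, 58.2 and 63.3 CPM in GF livers. No ConvD liver reached any germ-free liver, and Odc1 fell against both (-0.45, adjusted p = 0.00218 against GF; -0.73, adjusted p = 6.52e-05 against GF+SCFA). Gpt2, the mitochondrial alanine aminotransferase, fell too, to 451 ± 29.5 CPM in ConvD livers, against 634 ± 35.1 CPM in GF+SCFA livers (log2 fold change -0.49, adjusted p = 0.00124) and 576 ± 41.9 CPM in GF livers (-0.35, adjusted p = 0.0134, with 0.0598 without ConvD replicate 2). Cad, which makes carbamoyl phosphate for pyrimidines in the cytosol, was called lower against both, at 6.31 ± 0.629 CPM in ConvD livers, 10.7 ± 1.65 CPM in GF+SCFA livers and 8.77 ± 0.893 CPM in GF livers.

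The Cad call against GF+SCFA (-0.77, adjusted p = 0.00203) held in all 9 fits with a library left out. That against GF (-0.47, adjusted p = 0.0388) held in 3 of them, being lost without GF replicates 1 or 2, GF+SCFA replicate 2 or any ConvD replicate, with a highest adjusted p of 0.132 without GF replicate 1. Prodh, proline dehydrogenase, fell against GF+SCFA, to 175 ± 12.3 CPM in ConvD livers, against 229 ± 9.77 CPM in GF+SCFA livers (-0.39, adjusted p = 0.00387). Adssl1, a purine-cycle adenylosuccinate synthase, rose against GF+SCFA (0.38, adjusted p = 0.00615), a call kept in all 9 left-out fits. It also rose against GF (0.27, adjusted p = 0.0421), but this call held in 1 of 9 left-out fits. The call against GF was lost in all except the fit without GF replicate 3, with 0.136 at most without GF replicate 1.

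Some enzymes next to the cycle that are not members, Glul, Glud1, Car5a and Got2, were not called in any comparison. Others were called lower in ConvD against GF+SCFA, namely Gpt (-0.30, adjusted p = 0.0228), Fh1 (-0.55, adjusted p = 0.028) and Mdh2 (-0.19, adjusted p = 0.0448). These calls held in 6, 4 and 0 of 9 left-out fits. In the nitrogen entry and disposal list 11 genes fell and 3 rose against GF+SCFA. Glul, glutamine synthetase, which captures the ammonia that leaves the periportal cells, had 1033, 841 and 933 CPM in ConvD livers, 1059, 936 and 899 CPM in GF+SCFA livers, and 880, 949 and 839 CPM in GF livers. The groups overlapped, and the log2 fold change of ConvD over GF was 0.07 (interval -0.13 to 0.27, adjusted p = 0.658). Glud1, glutamate dehydrogenase, gave 0.05 (interval -0.10 to 0.21), Car5a, the carbonic anhydrase that supplies bicarbonate to Cps1, gave -0.01 (interval -0.18 to 0.16), and Got2, the mitochondrial aspartate aminotransferase, gave -0.10 (interval -0.29 to 0.09), none of them called. Sirt5, which is known to activate Cps1 protein by removing acyl groups, had 12.3 ± 0.612 CPM in ConvD livers, 9.23 ± 1.08 CPM in GF+SCFA livers and 9.67 ± 1.32 CPM in GF livers. It was called higher against GF+SCFA (0.41, adjusted p = 0.0322) and not against GF (0.35, adjusted p = 0.0747). That call held in 5 of 9 left-out fits and was lost without GF+SCFA replicates 1 or 3 or ConvD replicates 1 or 2, with 0.129 at most without GF+SCFA replicate 3. These genes are shown for their place in the pathway. The second arginase gene Arg2 and the second ornithine carrier gene Slc25a2 were too low to test, with 29 and 10 counts over the 9 livers.

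Of 16 tested transporters of amino acids, ammonia and urea, 1 rose and 1 fell against GF, and 2 rose and 2 fell against GF+SCFA. Over all genes tested, 12.8% and 18.4% were called in these comparisons. The share of transporters called against GF was thus near that of all genes. Their share against GF+SCFA was above it, a difference that was not tested. Slc1a2, a plasma membrane glutamate transporter of pericentral hepatocytes, had 190, 170 and 224 CPM in ConvD livers, 254, 279 and 273 CPM in GF+SCFA livers, and 270, 288 and 284 CPM in GF livers. It fell without overlap against GF (-0.53, adjusted p = 0.00263) and GF+SCFA (-0.47, adjusted p = 0.0034). The basic amino acid carrier Slc25a29 was called lower against GF+SCFA (-1.02, adjusted p = 0.00948), at 1.28 ± 0.290 CPM in ConvD and 2.59 ± 0.280 CPM in GF+SCFA livers, and gave -0.60 against GF (adjusted p = 0.12). Slc1a4, a neutral amino acid transporter, was called higher against GF (0.95, adjusted p = 0.0253, with 0.114 without ConvD replicate 1) and GF+SCFA (0.89, adjusted p = 0.0257, with 0.124 without ConvD replicate 1), at 3.11 ± 0.883 CPM in ConvD, 1.67 ± 0.456 CPM in GF+SCFA and 1.61 ± 0.258 CPM in GF livers. Against GF the Slc1a4 call was also lost without GF replicates 1 or 3, and against GF+SCFA without GF+SCFA replicate 3. Slc7a1, the cationic amino acid transporter, was called higher against GF+SCFA (1.02, adjusted p = 0.0464), at 1.13 ± 0.168 CPM in ConvD and 0.562 ± 0.224 CPM in GF+SCFA livers, a call kept in 3 of 9 left-out fits and lost without GF replicate 2, GF+SCFA replicates 2 or 3 or any ConvD replicate, with 0.179 at most without GF+SCFA replicate 2. The glutamine carrier Slc38a3 and the urea and glycerol channel Aqp9 gave 0.00 and -0.12 against GF, both not called.

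Breakdown of amino acids supplies nitrogen to the cycle, and the list read for it also held related steps such as those of Csad and Ahcy. Of its 48 tested genes 8 were called lower and 5 higher in ConvD than in GF livers. Against GF+SCFA livers 12 were called lower and 5 higher. The called shares were 27.1% and 35.4%, against 12.8% and 18.4% of all genes tested. Tat, tyrosine aminotransferase, had 1536, 1301 and 1557 CPM in ConvD livers, 2949, 3221 and 4238 CPM in GF+SCFA livers, and 3095, 2699 and 3902 CPM in GF livers. The ConvD values lay far below all others, and replicate 2 was again the lowest of them. Ahcy, which hydrolyses S-adenosylhomocysteine, fell to 1854 ± 80.9 CPM in ConvD livers, against 2902 ± 131 CPM in GF+SCFA livers (-0.65, adjusted p = 0.00033) and 2791 ± 251 CPM in GF livers (-0.59, adjusted p = 0.00114).

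Csad, which makes the taurine precursor hypotaurine, rose to 149 ± 23.6 CPM in ConvD livers, against 38.8 ± 5.14 CPM in GF+SCFA livers and 59.2 ± 3.44 CPM in GF livers (log2 fold changes 1.94, adjusted p = 7.69e-06, and 1.33, adjusted p = 0.000112). Amdhd1, imidazolonepropionase of histidine breakdown, rose against GF+SCFA (0.48, adjusted p = 0.000671) and GF (0.45, adjusted p = 0.0019). Hal, histidine ammonia lyase, had 287, 277 and 363 CPM in ConvD livers, 232, 208 and 212 CPM in GF+SCFA livers, and 242, 253 and 186 CPM in GF livers. All ConvD livers lay above all germ-free ones. Hal was called higher against GF (0.45, adjusted p = 0.039) and GF+SCFA (0.51, adjusted p = 0.0171), but the call against GF held in 2 of 9 left-out fits, those without GF replicate 2 and without ConvD replicate 2, with 0.0918 at most without ConvD replicate 3. The call against GF+SCFA was lost without GF+SCFA replicates 2 or 3, with 0.0663 at most.

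Regulators known to act on urea cycle and gluconeogenic genes moved in both directions, with 4 of 30 higher and 3 lower against GF, and 5 higher and 4 lower against GF+SCFA. In either direction 7 of 30 and 9 of 30 were called, where 12.8% and 18.4% of all genes tested were called. Both shares were above those of all genes, and the differences were not tested. Cebpa, which encodes the C/EBP alpha factor named above, was higher in ConvD livers, at 247 ± 22.6 CPM, than in GF+SCFA livers at 175 ± 9.68 CPM (0.49, adjusted p = 0.00229) and GF livers at 191 ± 20.8 CPM (0.37, adjusted p = 0.0168). The Cebpa call against GF was lost without GF replicate 1, with an adjusted p of 0.0702, and without ConvD replicate 1. Foxo1, a fasting-active factor restrained by insulin, fell to 28.0 ± 1.60 CPM in ConvD livers, against 47.7 ± 1.72 CPM in GF+SCFA livers (-0.77, adjusted p = 0.000101) and 46.8 ± 5.08 CPM in GF livers (-0.74, adjusted p = 0.00018). Klf15, a factor that promotes amino acid breakdown, fell to 153 ± 14.3 CPM in ConvD livers, against 201 ± 16.4 CPM in GF+SCFA livers (-0.39, adjusted p = 0.00807) and 204 ± 16.9 CPM in GF livers (-0.42, adjusted p = 0.00922).

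Atf5, an amino acid stress factor, rose to 96.3 ± 19.0 CPM in ConvD livers, against 59.1 ± 8.47 CPM in GF+SCFA livers (0.70, adjusted p = 0.0128). It was also called higher than in GF livers, at 62.8 ± 6.21 CPM (0.62, adjusted p = 0.0285). The Atf5 call against GF was lost without GF replicates 1 or 3 or ConvD replicates 1 or 2, with 0.0982 at most without GF replicate 3. Insr, the insulin receptor, was called lower against GF (-0.31, adjusted p = 0.0177) and lost that call without GF replicate 2, ConvD replicate 1 or ConvD replicate 2, with 0.0722 at most without ConvD replicate 2.

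Because the cycle is periportal, genes of both ends of the liver lobule were read beside it. Of 22 other periportal genes, 2 rose and 2 fell against GF, and 2 rose and 2 fell against GF+SCFA. That was 18.2% called in each comparison, against 12.8% and 18.4% of all genes tested, so the share against GF+SCFA was near that of all genes. Pck1, the gluconeogenic phosphoenolpyruvate carboxykinase, fell to 2095 ± 181 CPM in ConvD livers, against 3746 ± 316 CPM in GF+SCFA livers (-0.84, adjusted p = 0.00015) and 3865 ± 300 CPM in GF livers. Hal, described above, was called the other way, and so was Ctsc, the protease cathepsin C, against GF (0.51, adjusted p = 0.021), a call kept in 5 of 9 left-out fits and lost without GF replicates 1 or 2 or ConvD replicates 2 or 3 (0.0759 at most). Gm2a, a lysosomal ganglioside activator, was called higher against GF+SCFA (0.32, adjusted p = 0.0251) and kept that in 5 of 9 left-out fits, being lost without GF+SCFA replicates 2 or 3 or ConvD replicates 1 or 2 (0.105 at most). Igf1, a growth factor secreted by hepatocytes, was called lower against GF (-0.29, adjusted p = 0.0486) in 1 of 9 left-out fits, that without ConvD replicate 1, with 0.125 at most. Against GF+SCFA it was called lower (-0.31, adjusted p = 0.0291) in 5 of 9, being lost without GF+SCFA replicates 2 or 3 or ConvD replicates 2 or 3, with 0.0989 at most.

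At the pericentral end 6 of 30 genes fell and 1 rose against GF, with the same counts against GF+SCFA. That was 23.3% called in each, against 12.8% and 18.4% of all genes tested. Ang (angiogenin) and Rnase4, secreted ribonucleases encoded at 1 locus whose shared reads make the split uncertain, fell to 137 ± 17.9 and 915 ± 85.0 CPM in ConvD livers, against 218 ± 17.9 and 1276 ± 112 CPM in GF livers. Both were also called lower against GF+SCFA livers, which had 217 ± 13.2 and 1254 ± 54.6 CPM. Cyp7a1, which starts the classic pathway of bile acid synthesis, fell to 124 ± 28.4 CPM in ConvD livers, against 350 ± 79.1 CPM in GF livers (-1.49, adjusted p = 0.00675) and 267 ± 36.3 CPM in GF+SCFA livers (-1.10, adjusted p = 0.014). Cyp27a1, another bile acid enzyme, fell to 426 ± 20.0 CPM in ConvD livers, against 527 ± 14.0 CPM in GF+SCFA livers (-0.31, adjusted p = 0.00873).

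**Figure D5:**
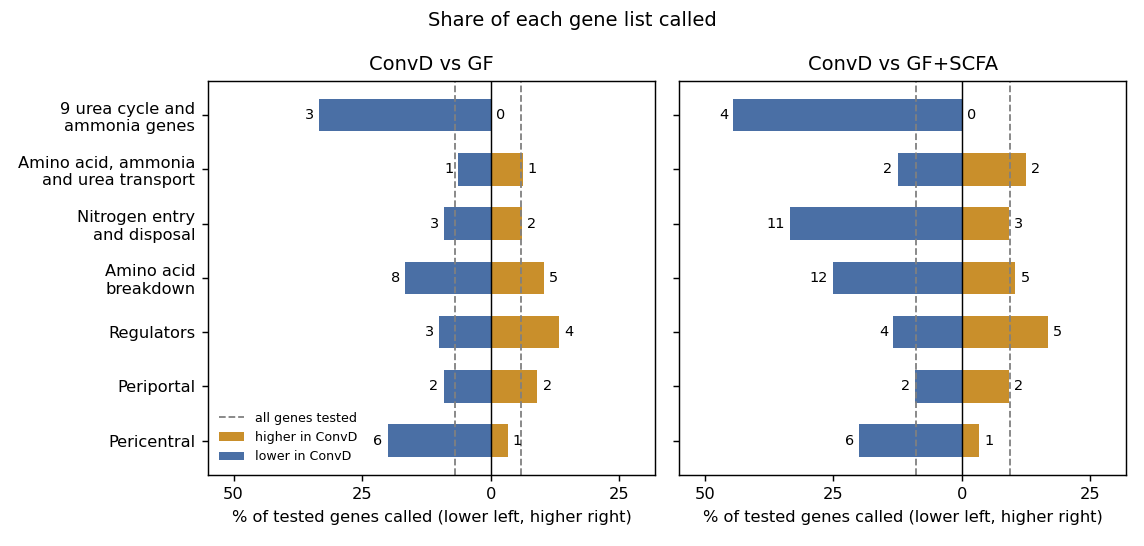
Percent of tested genes called in each list, for ConvD against GF (left) and against GF+SCFA (right); bars to the left are genes lower in ConvD, bars to the right genes higher in ConvD, and the numbers are gene counts. Dashed lines mark the share of all genes tested, 6.90% lower and 5.93% higher against GF and 8.97% and 9.44% against GF+SCFA; the 9 urea cycle and ammonia genes give 3 and 4 calls, all lower.

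Some genes outside these lists had the same shape over the 9 livers. Levels of each gene were put on a common scale by subtracting its mean and dividing by its SD over the livers, and the 9 genes were averaged. The average was then rescaled in the same way, to a mean of 0 and an SD of 1 over the livers. That rescaled mean profile was -0.93, -2.08 and -0.32 in the ConvD livers, 0.34, 0.71 and 1.23 in the GF+SCFA livers, and 0.12, 0.23 and 0.69 in the GF livers. Of 9888 other genes that averaged at least 50 expected counts, Mcc, Ankrd33b, Jmy, Pnrc1 and Zfhx3 came closest, with a mean absolute difference from the profile of 0.134, 0.178, 0.196, 0.223 and 0.225 SD, where the median of all other genes was 1.06 SD.

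Among the 9 genes themselves this distance was least for Ass1, at 0.284 SD, reached 0.508 SD for Cps1 and was 1.30 SD for Nags. Nags thus lay farther from the mean profile than a typical gene, although it entered that mean. Ankrd33b had 34.5, 26.1 and 42.0 CPM in ConvD livers, 57.7, 66.2 and 81.8 CPM in GF+SCFA livers, and 50.4, 45.4 and 68.7 CPM in GF livers. Mcc had 24.8, 18.6 and 31.2 CPM in ConvD livers, 44.6, 42.3 and 47.3 CPM in GF+SCFA livers, and 34.4, 36.4 and 40.7 CPM in GF livers. Both were lowest in ConvD replicate 2 and highest in GF+SCFA replicate 3, as were Ass1 and Asl. These genes were picked for their likeness over the same 9 livers, and it is given as a description with no test.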

How the data were processed

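Polyadenylated RNA of 9 livers was sequenced, with RNA from Qiagen columns and Illumina TruSeq Stranded mRNA libraries, per the labels' protocols. Per the submitters' processing notes, reads were processed by the authors with Bowtie2 and RSEM 1.2.23 on mm9; further settings, strand included, were not given in those sources. The deposited expected counts are not normalised; the TPM column deposited by the authors is, per the file headers, scaled for length and library size. Deposited FPKM values were not used.

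Expected counts were rounded and fitted in edgeR 4.0.16 (R 4.3.3) with filterByExpr (minimum count 10), TMM and robust quasi-likelihood dispersions over 3 groups and 9 libraries (6 residual degrees of freedom). The SE is the log2 fold change over the square root of F, and p-values were adjusted by Benjamini-Hochberg over 12037 genes. Depth was 18193071 to 21627696 counts a library, TMM factors 0.935 to 1.06, and the biological coefficient of variation 10.6%. Libraries of a group differed beyond sampling noise (chi-square per degree of freedom 10.8 to 51.2). The scripts were checked on simulated counts.

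Alternatives were DESeq2 1.42.0, upper-quartile factors, library totals, no filter, the 6 compared libraries alone, a replicate block, limma 3.58.1 on log2(TPM + 1) or log2(TPM + 0.1), and each library left out. Members, gene lists, motifs and tests were chosen with earlier results of these data known. Of 291 list entries, 289 matched a symbol. Named were all 9 genes, up to 4 called genes per list by adjusted p, 5 genes of like pattern, and some pathway genes chosen for their place in the pathway; 1 gene that meets the rule is not reported here. Genome windows are from GRCm38.p6; the files carry no coordinates.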

Additional observations from a re-analysis of the deposited data

How the results depend on the processing

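The count of the 9 genes called, and that of all genes and of the 173 surrounding genes, was computed under 9 other settings and with each library left out. For ConvD against GF, 1 of 9 was called under library totals and under each of the 3 limma fits on TPM, and the left-out fits gave 1 to 4. All genes called numbered 913 with log2(TPM + 1), 885 with log2(TPM + 0.1) and 616 with log2(TPM + 1) and no filter, and 849 to 1466 with a library left out. The surrounding genes gave 18 with limma and no filter, and 20 to 38 left out. For GF+SCFA against GF the left-out fits called 0 to 1 of the 9 genes and 0 to 173 of all genes, the highest without GF replicate 3. All genes called numbered 82 with DESeq2, 9 with library totals, 24 with no filter and 1, 1 and 2 with limma, and the surrounding genes gave 3 with DESeq2 and 0 to 3 left out. For ConvD against GF+SCFA, 2 of 9 were called under library totals, 2 under limma with either pseudocount and 1 under limma with no filter, and the left-out fits gave 1 to 6. All genes called numbered 1457 with limma and no filter and 1383 to 2393 left out, and the surrounding genes 29 and 35 to 58. The cause of these shifts was not tested.

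Signs turned only in values near 0 that were not called: Otc of GF+SCFA over GF was -0.01 in the 3 limma fits, 0.00 without GF replicate 3 and -0.02 to 0.03 over the left-out fits. Arg1 of the same comparison ranged from -0.02 (without GF+SCFA replicate 3) to 0.16, and Nags of ConvD over GF+SCFA from -0.04 (without GF+SCFA replicate 3) to 0.09. Deviations of livers with the same replicate number correlated at -0.07 to 0.14, so the numbers were not taken to pair the livers. With the replicate as a block, 4 of the 9 genes were called for ConvD against GF (Slc25a15 added, -0.35, adjusted p = 0.0197), 0 for GF+SCFA against GF and 4 for ConvD against GF+SCFA. The order of levels was the same by CPM per kilobase. With 3 livers a group, small fold changes were below what the test resolves.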
